A study of Mus musculus with 27 samples.

Results

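Arsenic feeding was compared between 2 regions of the mouse large intestine by asking, gene by gene, whether the change in the colon differed from the change in the cecum. The 18 libraries used, of 27 in the series, were all those of the cecum and the colon. They came from male C57BL/6 mice that arrived at 6 weeks of age, were acclimatized for 7 days and ate either standard feed or the same feed blended with arsenic at 30 ug/g for 60 days. The added arsenic was 72.7% sodium arsenite, 7.3% sodium arsenate, 19.0% dimethylarsinate (DMA) and 1.0% monomethylarsonate (MMA). The 4 groups were cecum control (standard feed, n = 4), cecum arsenic (n = 5), colon control (standard feed, n = 5) and colon arsenic (n = 4). Each diet had 10 mice, and the labels do not say which mouse gave which library, so p-values measure the spread between libraries.

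The cecum is the blind pouch where the small intestine opens into the large one, and it holds the densest fermenting microbiota of the mouse gut. The colon follows it, absorbs water and salt, and carries more mucus-secreting goblet cells. Trivalent arsenic binds thiols of proteins, induces metallothioneins and oxidative stress genes in many cells, and is methylated by the enzyme that As3mt encodes.

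Libraries held 16069985 to 18083282 counted reads. Levels of single genes are TMM-scaled CPM, which corrects counts for library size, and group values are a mean with its SD. Summed levels of lists are CPM by library total without the TMM factor, so they stand on another scale. The factor was 0.8867 to 0.9125 in cecum controls and 0.9238 to 0.9973 in cecum arsenic libraries. In the colon it was 1.0219 to 1.1002 in controls and 1.0846 to 1.1007 on arsenic. Changes are log2 fold changes of arsenic over control with their SE. Summed colonocyte markers reached 59073 to 70208 CPM in the cecum and 32739 to 43010.3 CPM in the colon. The 5 Paneth cell defensins of the marker list were too low to be tested in either region, while its 5 other members were tested. Summed over all 10, the Paneth list held 7.96 to 66.7 CPM in the cecum. In the colon it held 17.5 CPM in control 1 and up to 1328 CPM in control 4. The Paneth list shares Ang4 with the goblet list, so its sum is not a measure of Paneth cells alone. The colon libraries were less alike than the cecum libraries: edgeR's common biological coefficient of variation reached 0.245 for the colon and 0.130 for the cecum. Summed genes of gut position, whose levels differ along the large intestine, spanned 4126 to 16180 CPM over the colon controls (lowest in libraries 3 and 4, highest in library 1) and 5404 to 13039 CPM over the colon arsenic libraries (lowest in 11, highest in 12). Goblet markers ran the other way among the colon controls, from 18125 CPM in library 1 to 44684 CPM in library 4. Pancreatic acinar transcripts summed to 1081 and 957 CPM in colon controls 2 and 3 and to 54.0 to 362 CPM in the other colon libraries.

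In both regions arsenic feed lowered chaperone genes, 18 of 28 in the cecum and 15 in the colon, where 8.6% and 2.36% of all genes fell, and raised the metallothionein gene Mt1. Genes of cholesterol synthesis were higher on arsenic for 11 of 26 in the cecum and 16 in the colon, where 7.32% and 2.31% of all genes rose. The dual oxidase Duox2 and the stress factor Atf3 fell in the cecum and were not called in the colon, but the regional difference itself passed in edgeR for 1 gene, Elmsan1, which fell in the cecum. Of 17004 genes tested, that 1 (0.00588%) passed the test of the difference between regions, edgeR's quasi-likelihood F-test of the colon change minus the cecum change at a Benjamini-Hochberg adjusted p under 0.05. Its change was higher in the colon, and 0 genes passed with a lower change there. At the wider limit of an adjusted p under 0.1 there were 10 genes (0.0588%), each with the higher change in the colon, and 1643 genes (9.66%) had an unadjusted p under 0.05, of which 795 (4.68%) were higher and 848 (4.99%) lower. DESeq2 called 150 genes on the same counts, 116 higher and 34 lower, and limma voom with a quality weight for each library called 57. Leaving out colon control 1 raised the edgeR count to 59, with 49 higher and 10 lower, while leaving out any other single library gave 0 to 4 calls.

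Within each region the same fit called many more genes: 2706 (15.9%) by diet in the cecum, 1244 (7.32%) higher and 1462 (8.6%) lower on arsenic, and 793 (4.66%) in the colon, 392 (2.31%) higher and 401 (2.36%) lower. The colon count fell to 353 without colon arsenic 12, to 434 without colon arsenic 15 and to 458 without colon arsenic 11, and rose to 1309 without colon control 1. The cecum count was 1184 without cecum arsenic 11 and 13, the libraries with the most B cell transcripts. Upper-quartile scaling put 65.2% of the cecum calls and 60.6% of the colon calls on the higher side, against 46.0% and 49.4% with TMM. A call in 1 region and not in the other is no test of their difference, so the counts of 2171 genes called in the cecum alone and 258 in the colon alone do not by themselves show regional genes.

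The changes mostly shared a sign, as they did for 11584 of all 17004 genes. Of the 535 genes called in both regions, 236 rose in both, 297 fell in both and 2 went opposite ways. Among the 2706 genes called in the cecum, 2357 (87.1%) had a colon change of the same sign, and their median absolute log2 change was 0.482 in the cecum against a median of 0.213 in the colon, counted in the cecum's direction. The 793 colon calls had a median absolute log2 change of 0.452 there and 0.395 in the cecum, so the gap was smaller for genes chosen in the colon. A gene set picked by its call in 1 region tends to show a larger value in that region, so these medians are descriptions. Over all 17004 genes Pearson's r of the 2 changes was 0.246, a value across genes that are not independent replicates and that share libraries. The regional difference had a median SE of 0.227 log2 units, and for 11425 genes (67.2%) its 95% interval lay within 1 log2 unit of 0, so a regional difference of 2-fold or more lay outside the interval for those genes.

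**Figure D1:**
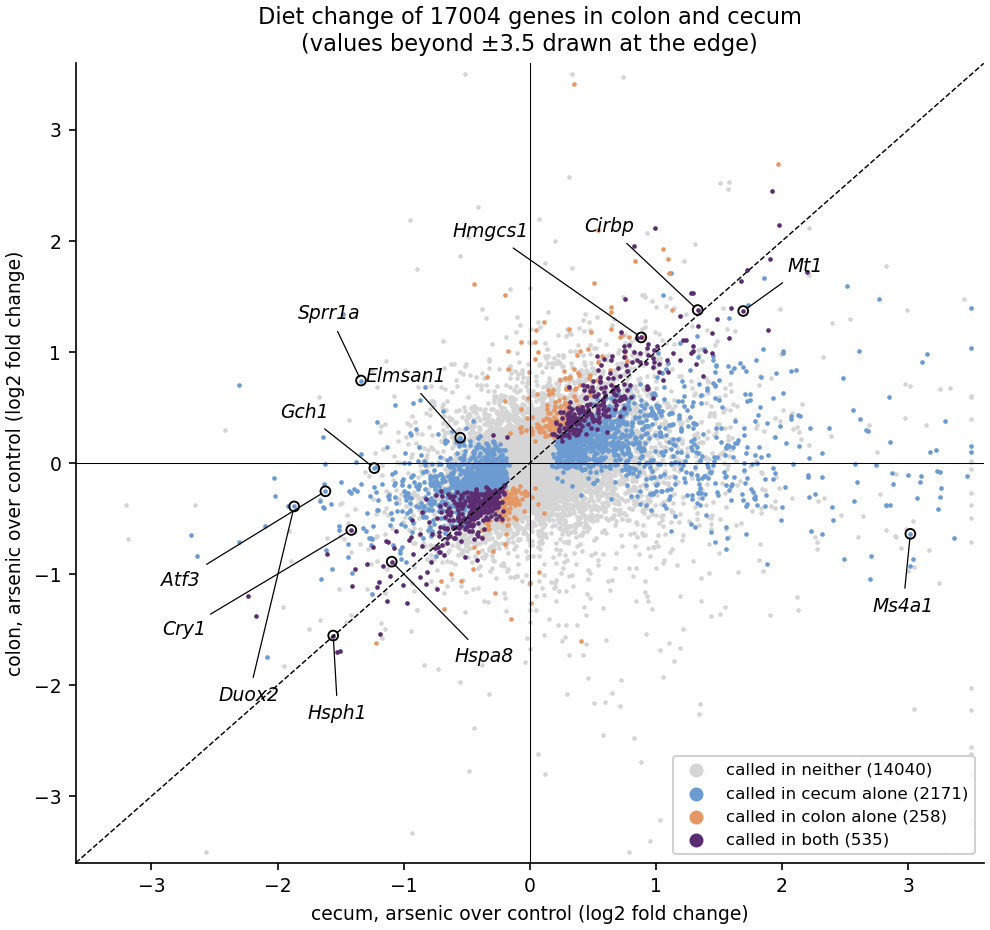
Diet change in the colon (vertical axis, log2) against the cecum (horizontal axis, log2) for 17004 genes, 1 point per gene, coloured by where the diet change was called, with the dashed line marking equal change. Of the 535 genes called in both regions, 533 changed with the same sign and 2, Tmem63b and Cdkn2b, with opposite signs. The 2171 called in the cecum alone spread horizontally, and Sprr1a and Elmsan1 sit at a negative cecum and a positive colon change.

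Elmsan1 (ENSMUSG00000042507, also called Mideas) encodes a scaffold of a histone deacetylase complex. Elmsan1 stood at 229, 251, 255 and 213 CPM in the 4 cecum control libraries and at 169, 171, 174, 145 and 149 CPM in the 5 cecum arsenic libraries. In the colon it stood at 77.8, 83.9, 67.9, 68.7 and 78.1 CPM in the 5 control libraries and at 92.1, 92.8, 84 and 83.9 CPM in the 4 arsenic libraries. Every cecum arsenic library was below every cecum control, while in the colon the arsenic libraries were the higher ones with a slight overlap. The gene fell in the cecum by 0.55 ± 0.08 (edgeR adjusted p = 0.000289) and its colon change of 0.23 ± 0.08 did not pass (adjusted p = 0.12). The regional difference was 0.78 ± 0.12 on the log2 scale, a 1.72-fold ratio of the changes with a 95% interval of 0.54 to 1.02 log2 units (edgeR adjusted p = 0.0364). The call was close to the threshold: it was kept under 12 of 32 alternatives, with adjusted p from 9.84e-06 to 0.204 and a log2 difference from 0.67 to 0.84. It was lost, among other settings, with the replicate block in edgeR (adjusted p = 0.0848) and without cecum control 1 or 2, without cecum arsenic 11, 12, 14 or 15, without colon control 3 or 4, without colon arsenic 11, 12, 13 or 15 (1 library at a time).

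The genes ranked next missed edgeR's threshold, though DESeq2 called each of the 9, and their values are given as a description. They were chosen after their values were seen, as the 9 others with an adjusted p under 0.1. All 10 genes fell in the cecum, and 2 of them were also called in the colon, where the fitted change was positive for 7. Plin3, a coat protein of lipid droplets, went from 157 ± 16 to 84.9 ± 5.62 CPM in the cecum and from 80.3 ± 5.73 to 68.4 ± 4.07 CPM in the colon, with a regional difference of 0.65 ± 0.11 (edgeR adjusted p = 0.0638). Gch1 encodes GTP cyclohydrolase, which makes the cofactor tetrahydrobiopterin. Cecum control libraries held 54.1, 65.1, 49.1 and 69.1 CPM of Gch1 and cecum arsenic libraries 24, 23.1, 24.8, 27.2 and 27.1 CPM. The colon controls held 30.1, 45.6, 32.5, 26 and 38.1 CPM and the colon arsenic libraries 36.5, 28.4, 38.1 and 30.5 CPM. The cecum groups were wholly apart and the colon groups lay over each other, and the regional difference was 1.19 ± 0.20 (edgeR adjusted p = 0.0638).

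Sprr1a, a small proline-rich protein cross-linked into the surface layer of stressed epithelia, had the largest regional difference of the 10 genes, 2.08 ± 0.36 (edgeR adjusted p = 0.0702). Sprr1a stood at 188, 196, 157 and 199.5 CPM in the 4 cecum control libraries and at 90.9, 71.8, 74.6, 59.3 and 69.2 CPM in the 5 cecum arsenic libraries. In the colon it stood at 15.9, 13.9, 11.4, 6.57 and 14.1 CPM in the 5 control libraries and at 22.3, 11.9, 32.7 and 16 CPM in the 4 arsenic libraries. It fell in the cecum by 1.34 ± 0.25 (adjusted p = 0.00215), and the colon change of 0.74 ± 0.26 did not pass (adjusted p = 0.117). Sprr1a was a far more abundant transcript in the cecum controls than in the colon controls, so the 2 changes started from different levels. Its RefSeq promoter (GRCm38.p6, chr3:92485882-92486131, minus strand, the 250 bases before the start site) is shown with matches to the AP-1 site TGANTCA in capitals, since AP-1 subunits and Atf3, described below, are among the immediate early genes measured. The search covered both strands and found 2 matches. Of 32851 promoter windows of this length, 6.75% hold at least 1, and a match is a description of the letters only.
Sprr1a: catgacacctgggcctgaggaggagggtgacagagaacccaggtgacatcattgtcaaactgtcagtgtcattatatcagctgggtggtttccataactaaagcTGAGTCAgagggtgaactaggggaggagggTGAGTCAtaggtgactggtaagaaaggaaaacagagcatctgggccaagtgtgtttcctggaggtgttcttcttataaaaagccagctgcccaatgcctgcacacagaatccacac

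Tmem63b and Cdkn2b were the 2 genes called by diet in both regions with opposite signs. Cecum control libraries held 97.3, 92.1, 96.1 and 86 CPM of Tmem63b and cecum arsenic libraries 82.2, 82, 77.3, 81.7 and 85.9 CPM. The colon controls held 80.1, 81.7, 82.5, 82.4 and 81.2 CPM and the colon arsenic libraries 92.9, 95.3, 101 and 94.8 CPM. Tmem63b, which encodes a mechanically gated ion channel, was lower on arsenic in the cecum (-0.18 ± 0.05, edgeR adjusted p = 0.0265) and higher in the colon (0.23 ± 0.05, adjusted p = 0.016), with diet groups that did not overlap in either region. Cdkn2b stood at 46.9, 45.4, 47.7 and 40.7 CPM in the 4 cecum control libraries and at 33.2, 37.9, 37.9, 38.8 and 37 CPM in the 5 cecum arsenic libraries. In the colon it stood at 78.2, 77.7, 69.4, 67.2 and 73.8 CPM in the 5 control libraries and at 86.9, 90.7, 78.8 and 92.6 CPM in the 4 arsenic libraries. Cdkn2b encodes the cyclin-dependent kinase inhibitor p15, and it too was lower in the cecum (-0.29 ± 0.07, adjusted p = 0.0116) and higher in the colon (0.25 ± 0.07, adjusted p = 0.0495). The test of the regional difference gave edgeR adjusted p = 0.0702 for Tmem63b and 0.0906 for Cdkn2b, so neither passed. The other genes of the 10 were Evi5l (0.90 ± 0.16), Fam83g (0.58 ± 0.10), Zfp143 (0.69 ± 0.13) and Spg20 (0.82 ± 0.16), with group means of 13.9 to 52.2 CPM.

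**Figure D2:**
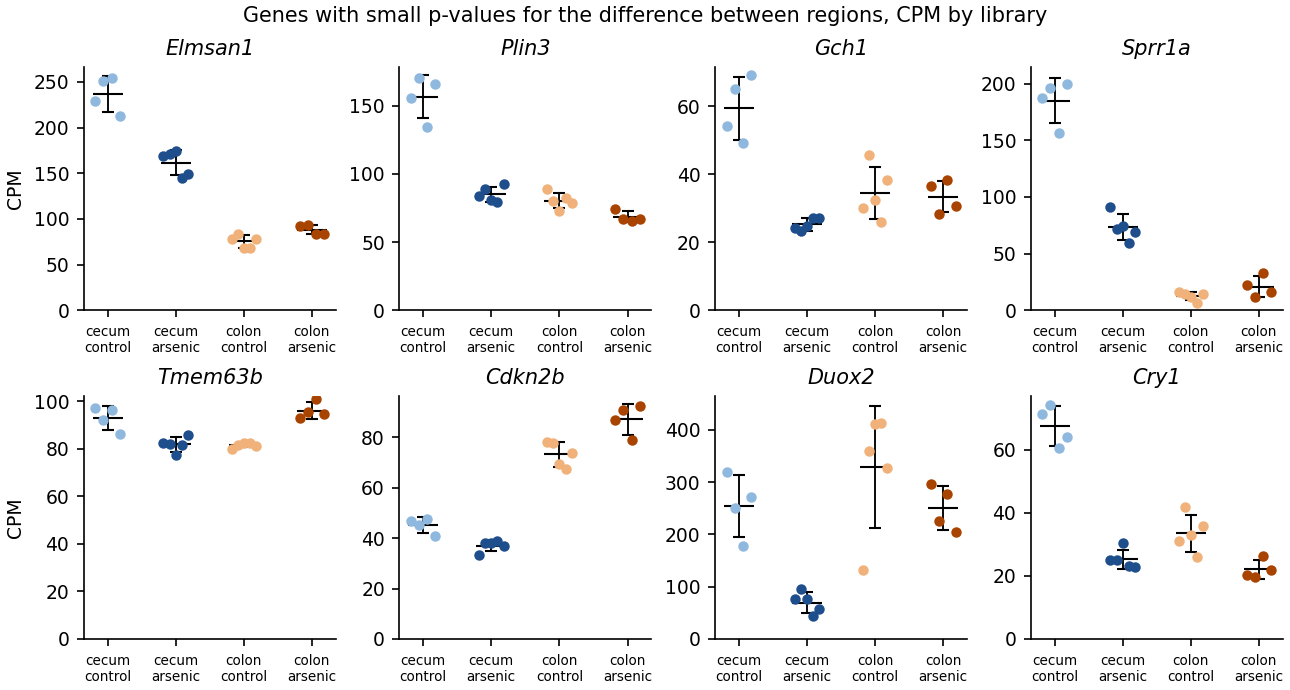
Level (CPM) of 8 genes in each of the 18 libraries, by region and diet (points, libraries; bars, mean ± SD). In the 5 genes Elmsan1, Plin3, Gch1, Sprr1a and Duox2 the cecum arsenic libraries lie below all cecum controls, while the colon groups overlap, and Tmem63b and Cdkn2b move in opposite directions in the 2 regions.

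Genes of epithelial defence came next, and none of the 26 list members tested passed the regional test, while 4 had an unadjusted p under 0.05 with the higher change in the colon and 0 with the lower. DESeq2 called 2 of them, Sprr1a and Duox2 (DESeq2 adjusted p = 1.54e-05 and 0.0241), and limma voom with library weights 1, Sprr1a. The median regional difference of the list was -0.18, beside -0.02 over all genes. In the cecum 5 members fell and 0 rose, where 8.6% of all genes fell, and in the colon 0 were called either way, where 4.66% of all genes were. Duox2 is the dual oxidase that makes hydrogen peroxide at the mucosal surface. Cecum control libraries held 319, 251, 177 and 271 CPM of Duox2 and cecum arsenic libraries 75.7, 95.9, 75.8, 43.6 and 57.6 CPM. The colon controls held 131, 360.4, 412, 413 and 327 CPM and the colon arsenic libraries 296, 226, 276 and 205 CPM. It fell in the cecum by 1.87 ± 0.29 (edgeR adjusted p = 0.000689), with groups apart, and in the colon the change was -0.39 ± 0.28 (adjusted p = 0.528), where control 1 was below all other colon libraries. The regional difference of 1.48 ± 0.40 did not pass (unadjusted p = 0.00206, edgeR adjusted p = 0.241). Duoxa2, the maturation factor that Duox2 needs, went from 80.6 ± 24.2 to 12.5 ± 5.86 CPM in the cecum and from 38.5 ± 16.6 to 24.5 ± 7.73 CPM in the colon, a regional difference of 2.04 ± 0.60 (adjusted p = 0.269).

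Transport and junction genes of the epithelium had cecum calls and 0 passing regional tests in edgeR, while DESeq2 called 1 transport and 3 junction genes, all with the higher change in the colon. Of 33 genes of ion and water transport, 4 fell in the cecum, 2 fell in the colon, and 0 rose in either, beside 8.6% and 2.36% of all genes that fell. With 1 library left out the cecum count ran from 2 (without cecum control 1, cecum control 2 or cecum arsenic 13) to 6 and the colon count from 0 (without colon control 5 or colon arsenic 11, 12 or 15) to 3. Colonocyte markers, which share 4 members with the transport list and 2 with the junction list, moved beside both: 4 of 18 fell in the cecum and 1 in the colon, 16 had a negative cecum change, and the median was -0.18 in the cecum and -0.07 in the colon. Their summed level was 63214 to 70208 CPM in cecum controls and 59073 to 63756 CPM in cecum arsenic libraries, and their part in these results was not tested. Slc9a3, the apical sodium-proton exchanger that drives sodium uptake, went from 423 ± 76.5 to 183 ± 18.1 CPM in the cecum and from 1079 ± 273 to 804 ± 178 CPM in the colon. Its cecum change of -1.21 ± 0.19 passed (edgeR adjusted p = 0.000603), its colon change of -0.43 ± 0.19 did not (adjusted p = 0.237), and the regional difference was 0.78 ± 0.27 (adjusted p = 0.328). Its scaffold Slc9a3r1 and the exchanger Slc9a2 had regional differences of 0.40 ± 0.11 and 0.29 ± 0.10 (edgeR adjusted p = 0.243 and 0.311), and the DESeq2 call was that of Slc9a3r1 (DESeq2 adjusted p = 0.0293). Aqp8, the water channel of surface colonocytes, stood at 3382 ± 339.5 and 2191 ± 244 CPM in the cecum and at 1039 ± 639.7 and 985 ± 289.7 CPM in the colon, and was called in neither region (edgeR adjusted p = 0.464 and 0.963).

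Among 26 genes of tight and adherens junctions, 4 fell in the cecum and 1 rose in the colon, beside 8.6% of all genes that fell in the cecum and 2.31% that rose in the colon. Of the 26, 21 had a positive regional difference, with a list median of 0.12. DESeq2 called the regional difference of Jup, Cldn4 and F11r (DESeq2 adjusted p = 0.0143, 0.0123 and 0.0117). The member called in the colon was Jup, plakoglobin, with a colon change of 0.27 ± 0.07 (edgeR adjusted p = 0.0416) and a cecum change of -0.16 ± 0.07 (adjusted p = 0.162). With 1 library left out the colon count was 0 to 2. Cldn4, a sealing claudin, had levels of 88.1, 86.6, 73.4, 67.7 and 63.9 CPM in the colon controls and 197, 83.4, 146 and 109 CPM in the colon arsenic libraries. Colon arsenic 11 and 13 were the high ones and arsenic 12 lay within the controls. In the cecum Cldn4 averaged 336 ± 86.3 CPM in controls and 229 ± 67.8 CPM on arsenic, and the regional difference was 1.37 ± 0.34 (edgeR adjusted p = 0.195). F11r, the junctional adhesion molecule JAM-A, fell in the cecum (-0.45 ± 0.06, adjusted p = 0.000173), and its regional difference was 0.32 ± 0.09 (adjusted p = 0.226).

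Genes of gut position stood beside these, because the colon libraries differed so widely in them. Of 28 tested, 2 fell in the cecum (4 without colon control 1), beside 8.6% of all genes, and 0 were called in the colon. B3galt5, a glycosyltransferase, had a regional difference of 1.12 ± 0.46, and Fabp6, the ileal bile acid binding protein, one of -5.26 ± 1.80 (edgeR adjusted p = 0.423 and 0.358). Fabp6 was low in the cecum controls, at most 7.90 CPM (control 4), and its difference ran from -7.12 to -3.55 over 32 alternatives. A position score was also used as a covariate in each region, centred on the mean of each diet group. So centred, it takes up spread within groups and does not adjust for a position difference between diets. With it, 0 genes passed the regional test, 2608 were called in the cecum and 738 in the colon. Without the 2 colon libraries of highest position level, control 1 and arsenic 12, the regional test called 41 genes, 39 of them higher, and without the 3 of lowest level, controls 3 and 4 and arsenic 11, it called 0.

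Stress signalling and immediate early genes were called in the cecum in both directions, and by edgeR 0 passed the regional test. Atf3, a stress-induced transcription factor of the AP-1 and ATF4 networks, went from 102 ± 12.6 to 33 ± 8.92 CPM in the cecum and from 64.2 ± 20.2 to 53.8 ± 7.58 CPM in the colon. The cecum change of -1.62 ± 0.23 passed (edgeR adjusted p = 0.000283), the colon change of -0.25 ± 0.22 did not (adjusted p = 0.625), and the regional difference was 1.37 ± 0.32 (unadjusted p = 0.000509, adjusted p = 0.16). DESeq2, limma voom with library weights and edgeR without colon control 1 called the regional difference of Atf3 (adjusted p = 0.00751, 0.0312 and 0.0429). Of 23 immediate early genes, 3 rose and 6 fell in the cecum and 2 fell in the colon, beside 7.32%, 8.6% and 2.36% of all genes, and 3 had an unadjusted regional p under 0.05 in each direction. The 3 higher calls became 0 without cecum control 2, 4 or 5 or cecum arsenic 11 or 13, 1 library at a time, and the colon count ran from 0 to 6, the latter without colon control 1. Dusp1, a phosphatase of MAP kinases, fell in the cecum (-1.22 ± 0.21, edgeR adjusted p = 0.0014) with a regional difference of 0.96 ± 0.30, and Egr3, with group means of 0.361 to 1.96 CPM, rose there (2.41 ± 0.71, adjusted p = 0.0251) with a regional difference of -2.92 ± 0.93. Among 21 ATF4 targets, a list that shares Atf3 with the immediate early genes, 3 fell in the cecum, beside 8.6% of all genes, and 0 were called in the colon. Ppp1r15a, which restores translation after stress, had a regional difference of 0.63 ± 0.21 and Ddit3 one of -0.36 ± 0.18. Their edgeR adjusted p-values for the regional difference lay above 0.05, as did those of Dusp1 (0.285) and Egr3 (0.291).

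NRF2 targets, the oxidative stress genes that arsenic induces in many cell types, were called in 3 of 24 cases in the cecum, 1 higher and 2 lower, and in 0 cases in the colon, beside 15.9% and 4.66% of all genes. With 1 library left out the 2 lower calls became 1 to 3. Txnrd1, thioredoxin reductase, stood at 389, 409.9, 363 and 402 CPM in cecum controls and 232, 267, 222, 247 and 229.8 CPM in cecum arsenic libraries, a fall of 0.70 ± 0.11 (edgeR adjusted p = 0.00067). In the colon it stood at 343, 264, 227, 205 and 222 CPM in controls and 228, 255, 220.5 and 241 CPM on arsenic, where control 1 was the highest of all. The regional difference was 0.61 ± 0.16 (edgeR adjusted p = 0.21), and it passed with DESeq2, with library weights in limma voom and in edgeR without colon control 1 (adjusted p = 0.0314, 0.016 and 0.00908). Srxn1 and Ephx1 had regional differences of 0.43 ± 0.16 and -0.31 ± 0.13, and the heme oxygenase Hmox1 and the quinone reductase Nqo1 of 0.40 ± 0.19 and 0.14 ± 0.42. None of these 4 passed (edgeR adjusted p = 0.379, 0.407, 0.513 and 0.959), and Hmox1 and Nqo1 were not called in either region.

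Clock genes were called in both regions, with 8 of 21 higher and 4 lower in the cecum and 3 higher and 3 lower in the colon, and 5 called in both with the same sign. Over all genes 7.32% were higher and 8.6% lower in the cecum and 2.31% and 2.36% in the colon, and 533 of 17004 were called in both with the same sign. Without cecum control 1 the cecum had 5 higher clock genes in place of 8, and without colon arsenic 12 the colon had 1 higher and 1 lower. The labels do not give the hour of tissue collection. Cry1, a repressor of the clock, had the smallest regional p of the list. Cry1 stood at 71.4, 74.2, 60.6 and 64 CPM in the 4 cecum control libraries and at 25.2, 25, 30.4, 23.2 and 22.9 CPM in the 5 cecum arsenic libraries. In the colon it stood at 31.2, 41.9, 32.9, 26.1 and 35.8 CPM in the 5 control libraries and at 20.4, 19.7, 26.4 and 21.9 CPM in the 4 arsenic libraries. The drop was 1.42 ± 0.12 in the cecum (edgeR adjusted p = 2.42e-06) and 0.60 ± 0.12 in the colon (adjusted p = 0.00975), and the colon groups met at control 4 and arsenic 13. The regional difference of 0.81 ± 0.17 did not pass (edgeR adjusted p = 0.114), whereas DESeq2 and limma voom with library weights called Cry1 alone in this list (adjusted p = 0.00937 and 0.0489). Dbp, an output factor of the clock, rose from 13.3 ± 1.31 to 36.1 ± 7.34 CPM in the cecum and from 36.7 ± 8.09 to 73 ± 21.6 CPM in the colon, a regional difference of -0.45 ± 0.29 (edgeR adjusted p = 0.669). Nr1d1 and Nr1d2, the REV-ERB repressors, had regional differences of -0.47 ± 0.27 and -0.41 ± 0.22, and Per2 of -0.09 ± 0.37 (edgeR adjusted p = 0.622, 0.59 and 0.975).

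Heat shock genes fell in both regions, with like medians. Of 28 chaperones tested 18 fell in the cecum and 15 in the colon, all 15 of the latter being among the 18, and 0 rose in either region. List medians were -0.39 for the cecum and -0.38 for the colon, the median regional difference was -0.08, and the 95% interval of the regional difference lay within 1 log2 unit of 0 for 26 of 28. By edgeR, DESeq2 and limma voom with library weights alike, 0 chaperones passed the regional test, and 3 had a higher and 1 a lower colon change at an unadjusted edgeR p under 0.05. Hsph1 encodes the HSP110 partner of HSP70. Cecum control libraries held 138, 99.2, 116 and 109 CPM of Hsph1 and cecum arsenic libraries 50.9, 38.3, 34.7, 36.2 and 35.8 CPM. The colon controls held 124, 86.7, 75.4, 86.3 and 100.3 CPM and the colon arsenic libraries 41, 25, 31.7 and 31 CPM. Every arsenic library was below every control library of its region, and the regional difference was 0.01 ± 0.22 with a 95% interval of -0.46 to 0.47 log2 units (edgeR adjusted p = 0.998). Hspa8, the constitutive HSC70, went from 1986 ± 169 to 930.1 ± 98.9 CPM in the cecum and from 1718 ± 204 to 928 ± 53.8 CPM in the colon, a regional difference of 0.21 ± 0.14. Dnaja1, Chordc1 and Stip1, all co-chaperones of HSP70 or HSP90 and chosen after their values were seen, had regional differences of -0.16 ± 0.14, -0.09 ± 0.12 and -0.08 ± 0.11.

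The heat shock members with the smallest regional p pointed both ways. The inducible HSP70 gene Hspa1a went from 17.8 ± 7.77 to 3.78 ± 0.425 CPM in the cecum and from 20.3 ± 9.09 to 8.85 ± 1.46 CPM in the colon, and its near-identical neighbour Hspa1b from 84.2 ± 39.5 to 18.7 ± 3.80 CPM in the cecum and from 101 ± 30.6 to 39.1 ± 1.77 CPM in the colon. Reads of the pair can be split between them by the counting, and their regional differences of 1.04 ± 0.40 and 0.80 ± 0.37 did not pass (edgeR adjusted p = 0.386 and 0.503). Hsp90aa1 fell from 385 ± 36.8 to 296 ± 28.7 CPM in the cecum and from 326 ± 24 to 205 ± 16.3 CPM in the colon, with a regional difference of -0.29 ± 0.12, while Bag3, a co-chaperone of HSP70 in autophagy, had one of 0.33 ± 0.14 (edgeR adjusted p = 0.423 and 0.409).

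The unfolded protein response of the endoplasmic reticulum followed, with 9 of 23 genes lower in the cecum, 12 lower in the colon, 8 called in both and 0 higher in either, beside 8.6% and 2.36% of all genes that fell. Of all 17004 genes, 297 fell in both regions. The colon count of the list was 6 without colon arsenic 12 and 7 without colon arsenic 15. Hspa5, the chaperone BiP, had levels of 585, 498, 468 and 583 CPM in cecum controls, 429, 375, 359, 362 and 342 CPM in cecum arsenic libraries, 583, 587, 589, 734 and 544 CPM in colon controls and 361, 297, 382 and 311 CPM in colon arsenic libraries. Colon control 4 was the highest of all, and the diet groups did not overlap in either region. The change was -0.51 ± 0.10 in the cecum and -0.85 ± 0.10 in the colon, a regional difference of -0.33 ± 0.15 (edgeR adjusted p = 0.463). Sdf2l1 differed the other way (0.33 ± 0.13), and Dnajc3, a co-chaperone of BiP, by -0.25 ± 0.11 (edgeR adjusted p = 0.4 and 0.435).

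The metallothionein gene Mt1 rose in both regions. Mt2, another metallothionein gene, had no counts in any of the 18 libraries and was not tested. Mt1 stood at 21.7, 22, 21 and 18.8 CPM in the 4 cecum control libraries and at 57.6, 57.6, 77, 79.4 and 66.1 CPM in the 5 cecum arsenic libraries. In the colon it stood at 58.3, 28.6, 17.1, 18.4 and 23 CPM in the 5 control libraries and at 47.3, 114, 60.9 and 78.6 CPM in the 4 arsenic libraries. Mt1 (ENSMUSG00000031765) binds zinc, cadmium and arsenic through its cysteines. The cecum groups were apart, while in the colon control 1 lay above arsenic 11 and the arsenic libraries ranged from 47.3 to 114 CPM. The log2 change was 1.69 ± 0.32 in the cecum and 1.37 ± 0.31 in the colon (edgeR adjusted p = 0.00313 and 0.02), and the regional difference of -0.32 ± 0.44 had a 95% interval of -1.26 to 0.62 (adjusted p = 0.883). The arsenic methyltransferase As3mt stood at 33.9 ± 3.35 and 34.3 ± 3.0 CPM in the cecum and 26.8 ± 0.983 and 27.2 ± 3.45 CPM in the colon, a regional difference of 0.00 ± 0.13 with a 95% interval of -0.26 to 0.27. Gsto1, which can reduce methylated arsenic, gave 0.04 ± 0.30. Of the 18 tested genes of metal binding and arsenic handling, 2 rose and 2 fell in the cecum and 1 rose in the colon, beside 15.9% of all genes called in the cecum and 4.66% in the colon. Without colon arsenic 12 the colon count was 0. The smallest regional p-values were those of Slc34a2, a phosphate transporter (-1.74 ± 0.62, edgeR adjusted p = 0.359), and the exporters Abcc1 (0.27 ± 0.13, adjusted p = 0.501) and Abcc3 (0.31 ± 0.16, adjusted p = 0.549).

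The promoters of Mt1 and Hsph1 are shown because these genes stood for the shared rise and the shared fall. Each is the RefSeq window of 250 bases before the start site in GRCm38.p6, for Mt1 chr8:94178839-94179088 on the plus strand and for Hsph1 chr5:149636337-149636586 on the minus strand, the first of 2 start sites listed. Capitals mark the core of a metal response element (TGCACNC or TGCGCNC) in Mt1 and 2 facing half-sites of a heat shock element (GAANNTTC or TTCNNGAA) in Hsph1, each searched on both strands. Both windows hold 1 match. Of 32851 windows, 21.4% hold a metal response core and 12.8% a heat shock pair, so such matches are common and say nothing of binding.
Mt1: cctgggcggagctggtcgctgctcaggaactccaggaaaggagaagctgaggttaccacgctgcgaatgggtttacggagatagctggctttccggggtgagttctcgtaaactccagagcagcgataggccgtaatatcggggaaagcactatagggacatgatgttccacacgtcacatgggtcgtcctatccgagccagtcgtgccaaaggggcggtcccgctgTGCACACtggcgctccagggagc
Hsph1: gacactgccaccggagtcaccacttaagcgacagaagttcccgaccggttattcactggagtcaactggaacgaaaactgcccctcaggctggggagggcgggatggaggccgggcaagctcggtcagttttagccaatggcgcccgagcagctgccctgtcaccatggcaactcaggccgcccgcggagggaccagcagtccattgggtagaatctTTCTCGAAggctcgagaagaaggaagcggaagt

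Cholesterol synthesis genes rose in both regions. Of 26 tested, 11 rose and 2 fell in the cecum and 16 rose and 0 fell in the colon, beside 7.32% and 2.31% of all genes that rose. Of these 10 rose in both, beside 236 of all 17004 genes, with list medians of 0.41 for the cecum and 0.72 for the colon. The regional difference was positive for 25 of 26 with a median of 0.22, beside -0.02 over all genes, yet 0 members passed the regional test and 3 had an unadjusted p under 0.05. Mvd, mevalonate decarboxylase, had levels of 46.7, 45.1, 34.8 and 54.2 CPM in cecum controls and 62.1, 57, 61.2, 54.7 and 57.7 CPM in cecum arsenic libraries, and of 23.4, 23.2, 19.6, 21.4 and 22 CPM in colon controls and 51.7, 33.3, 50.8 and 35.9 CPM in colon arsenic libraries. It rose in the colon (edgeR adjusted p = 0.000407), its cecum change did not pass (adjusted p = 0.0585), and the regional difference was 0.60 ± 0.18 (adjusted p = 0.271). Pmvk, the kinase one step earlier, had a regional difference of 0.46 ± 0.14 (edgeR adjusted p = 0.269). Hmgcs1, an early enzyme of the pathway chosen after its values were seen, rose from 223 ± 38.5 to 412 ± 34.2 CPM in the cecum and from 156 ± 26 to 341 ± 79.1 CPM in the colon, with arsenic libraries above all controls in both regions and a regional difference of 0.25 ± 0.22 with a 95% interval of -0.21 to 0.71.

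Cirbp, the cold-inducible RNA binding protein, was chosen after its values were seen. It rose from 20.0 ± 4.13 to 50.4 ± 4.99 CPM in the cecum and from 26.7 ± 4.02 to 69.4 ± 5.93 CPM in the colon, a change of 1.33 ± 0.13 and 1.38 ± 0.13 (edgeR adjusted p = 1.00e-05 and 8.86e-06) and a regional difference of 0.05 ± 0.18 with a 95% interval of -0.33 to 0.43. In its list of 21 splicing factors and cold-inducible proteins, 5 rose and 3 fell in the cecum and 1 rose and 4 fell in the colon, beside 15.9% and 4.66% of all genes called. With 1 library left out the cecum calls became 3 to 5 higher and 1 to 3 lower. Srsf7, a splicing factor, fell in the colon (-0.48 ± 0.08, edgeR adjusted p = 0.00343), where the arsenic libraries lay below all controls, and its regional difference was -0.36 ± 0.12 (adjusted p = 0.318). Tra2b and Srsf3 gave -0.22 ± 0.10 and -0.25 ± 0.12 (edgeR adjusted p = 0.48 and 0.49).

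**Figure D3:**
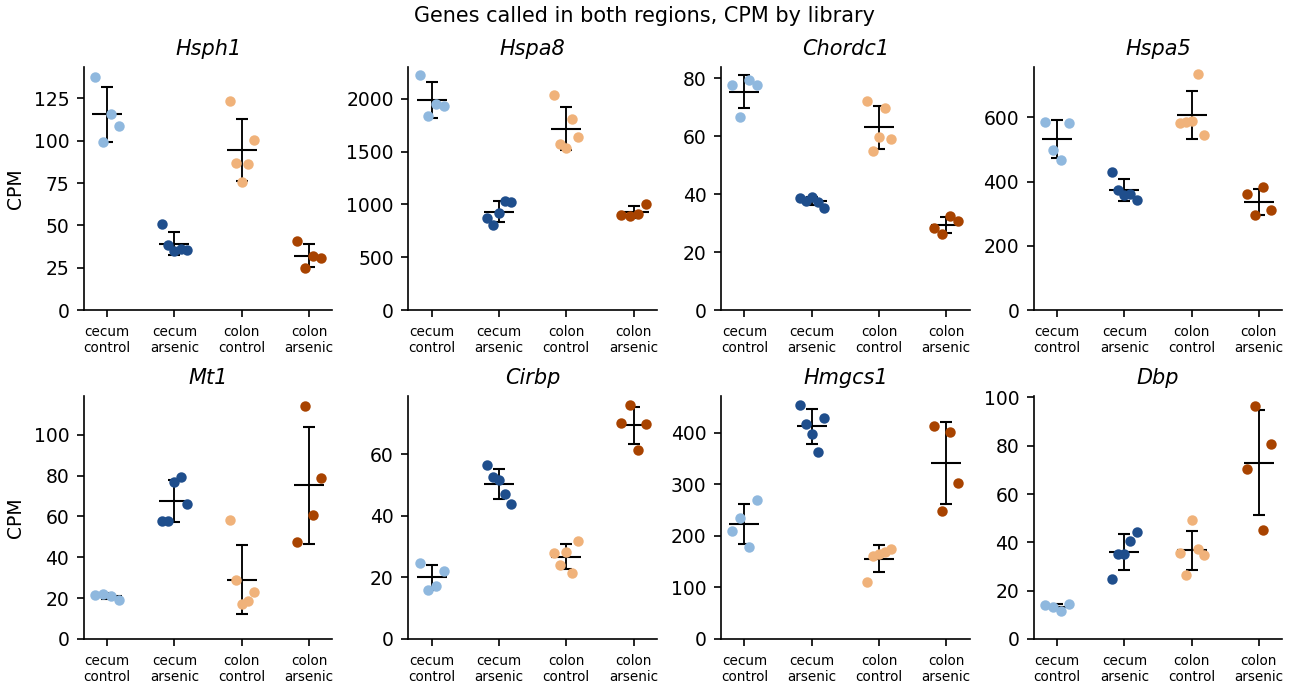
Level (CPM) of 8 genes called by diet in both regions, in each of the 18 libraries (points, libraries; bars, mean ± SD). Hsph1, Hspa8, Chordc1 and Hspa5 are lower on arsenic in both regions, and Mt1, Cirbp, Hmgcs1 and Dbp are higher, with an overlap of the diet groups for Mt1 and Dbp in the colon.

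Genes with the lower change in the colon had 0 calls in edgeR, where 848 had an unadjusted p under 0.05, 34 calls in DESeq2, 2 in limma voom with library weights and 2 in edgeR with the replicate block, the pancreatic enzyme genes Pnlip and Cpa1. The smallest regional p-values among them, named after their values were seen, were those of Zkscan14, a zinc finger gene (-0.68 ± 0.14, edgeR adjusted p = 0.107), the kinase gene Cdkl1 (-1.40 ± 0.30, adjusted p = 0.114), Itpripl2 (-0.75 ± 0.18, adjusted p = 0.16), the lymphocyte gene Ms4a4b (-1.71 ± 0.40, adjusted p = 0.16), the blood cell transcription factor Lyl1 (-1.92 ± 0.45, adjusted p = 0.162) and Zfp831 (-2.39 ± 0.61, adjusted p = 0.195). DESeq2 called all 6, Zkscan14 with the smallest adjusted p (0.00751), and voom with library weights Itpripl2 (adjusted p = 0.0297). All 6 rose in the cecum on arsenic and none was called in the colon. Itpripl2 went from 25.3 ± 5.07 to 51.8 ± 4.94 CPM in the cecum and from 31.9 ± 4.13 to 38.7 ± 4.51 CPM in the colon. Pnlip and Cpa1 were called in a fit that left out colon control 3. Pancreatic acinar markers summed to 1081 CPM in colon control 2 and to 54.0, 207 and 73.9 CPM in colon controls 1, 4 and 5. In the cecum they were highest in arsenic 11, at 80.3 CPM. The part of these libraries in the calls was not tested.

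Transcripts of B cells and follicles held the most members with an unadjusted regional p under 0.05 of all lists counted. In the cecum 5 of 17 rose, in the colon 0 were called, and 16 of 17 had an unadjusted regional p under 0.05 with the lower change in the colon, beside 7.32%, 4.66% and 4.99% of all genes, although 0 passed the adjusted test in edgeR or DESeq2. The cecum count was 16 with DESeq2. Leaving out 1 library gave 0 (without cecum control 4), 1 (without cecum control 2 or 5 or cecum arsenic 11, 12 or 13), 3 (without colon arsenic 11 or 13), 8 (without colon control 4), 10 (without colon control 1) or 14 (without cecum control 1 or cecum arsenic 15). Summed over the list, the cecum controls held 81.6, 21.6, 15.4 and 26.8 CPM and the cecum arsenic libraries 327, 175.5, 316, 85.6 and 29.1 CPM. Colon controls held 31.9, 61.0, 131, 190.4 and 40.5 CPM and colon arsenic libraries 69.4, 80.4, 69.7 and 60.3 CPM. The high cecum libraries were arsenic 11, 12 and 13, cecum arsenic 15 lay among the controls, and colon controls 3 and 4 were above every colon arsenic library. In bulk tissue, fewer cells of a type and less RNA per cell cannot be told apart. Ms4a1, which encodes the B cell antigen CD20, stood at 5.66, 0.757, 0.54 and 1.56 CPM in cecum controls and 36.6, 12.1, 29.7, 7.29 and 1.40 CPM in cecum arsenic libraries. Its regional difference was -3.65 ± 1.24 (edgeR adjusted p = 0.339), that of Cd22 -3.91 ± 1.31 and that of Ebf1 -0.88 ± 0.31. Without cecum arsenic 11 and 13 no member of the list was called in the cecum. These 2 libraries were left out for their high level in this same list, so a loss of calls was largely built in and tests nothing.

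T cell and innate lymphocyte markers were also highest in cecum arsenic 11, 12 and 13 among the cecum libraries, with 6 of 23 higher in the cecum, 0 called in the colon and 9 with an unadjusted regional p under 0.05, all lower, beside 7.32%, 4.66% and 4.99% of all genes. Leaving out 1 library gave 2 cecum calls (without cecum control 2), 3 (without cecum arsenic 11 or 13) or 12 (without cecum arsenic 15 or colon control 1), and DESeq2 made 13. Without cecum arsenic 11 and 13, 0 of the 23 were called in the cecum. Both libraries were also high in these markers, so that loss is no separate test. Without colon control 1 and colon arsenic 12, the colon libraries of highest position level, 14 were called in the cecum. Slamf6, a receptor of lymphocytes outside this list, chosen after its values were seen and called by DESeq2 (adjusted p = 0.0289), had a regional difference of -3.10 ± 0.87 and Il7r, the interleukin-7 receptor, one of -1.53 ± 0.43 (edgeR adjusted p = 0.251 and 0.255). MHC class II and dendritic markers were higher for 4 of 11 genes in the cecum, beside 7.32% of all genes, and 7 had an unadjusted regional p under 0.05, all lower. The 4 became 0 without cecum control 2, 4 or 5 or cecum arsenic 11 or 13, 1 library at a time. H2-Aa stood at 100.3 ± 39.2 and 197 ± 82.8 CPM in the cecum and 263 ± 97.6 and 194 ± 124 CPM in the colon. Of 43 interferon response genes, 3 rose and 3 fell in the cecum and 0 were called in the colon, beside 7.32%, 8.6% and 4.66% of all genes. The cecum change was negative for 34 of the 43 (median -0.30), and the regional difference was positive for 28 (median 0.14). Among those with the smallest regional p, the interferon-induced genes Gbp5 and Gbp4 rose in the cecum (0.92 ± 0.20 and 1.12 ± 0.28, edgeR adjusted p = 0.00496 and 0.0111), with regional differences of -0.92 ± 0.27 and -1.13 ± 0.38, and Tgtp1 gave -1.19 ± 0.55. The part of the lymphocyte libraries in these results was not tested, since cecum arsenic 11 and 13 were left out for their B cell level.

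Ribosomal protein genes had small regional differences mostly of 1 sign: 37 of 41 were negative, the median was -0.19, and 6 had an unadjusted p under 0.05, all with the lower change in the colon. In the cecum 8 rose and in the colon 0 were called, beside 7.32% and 4.66% of all genes. Rpl26, Rpl22 and Rps24 rose in the cecum by 0.35, 0.33 and 0.30 on the log2 scale, and their regional differences were -0.29 ± 0.11, -0.29 ± 0.11 and -0.31 ± 0.13 (edgeR adjusted p = 0.373, 0.379 and 0.42). The cecum count of 8 ran from 3 (without cecum control 1) to 24 (without colon control 1) with 1 library left out. It was 2 without cecum arsenic 11 and 13, 24 without colon control 1 and colon arsenic 12, and 13 without colon controls 3 and 4 and colon arsenic 11 or with the position covariate. Genes with processed copies, such as these, have uncertain counts.

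**Figure D4:**
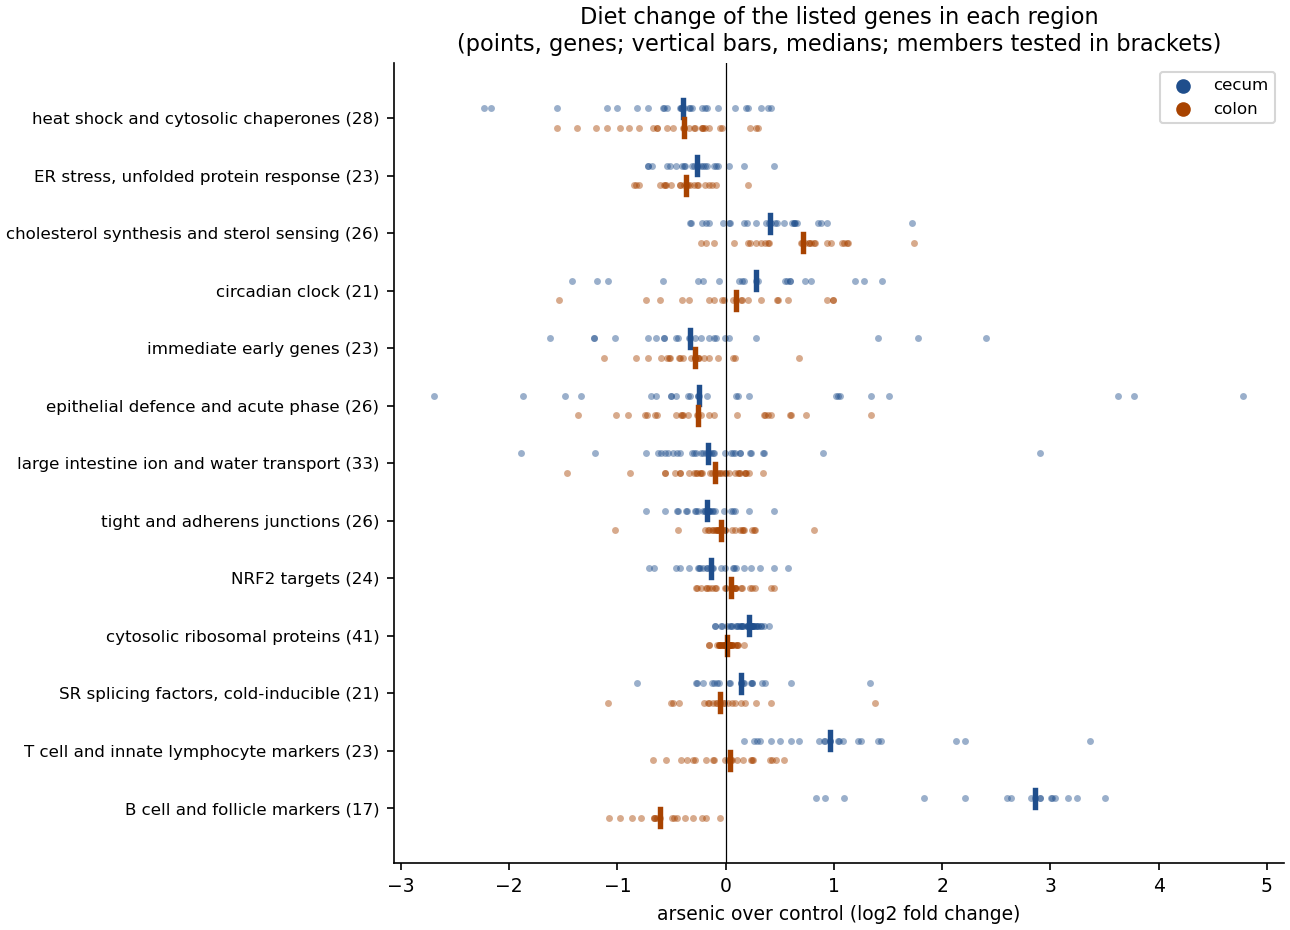
Diet change (log2, horizontal axis) of the tested members of 13 gene lists in the cecum and the colon (points, genes; vertical bars, list medians). The medians of the heat shock list lie at -0.39 and -0.38, those of the cholesterol list at 0.41 and 0.72, and those of the B cell list at 2.86 in the cecum and -0.60 in the colon.

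**Figure D5:**
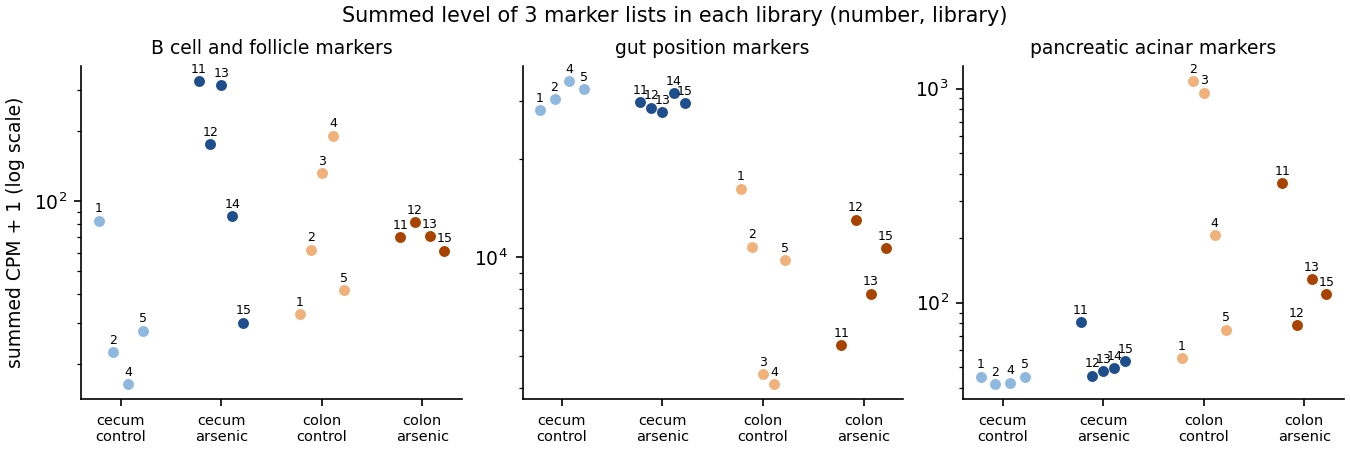
Summed level (CPM without the TMM factor, plus 1, log axis) of 3 marker lists in each of the 18 libraries. Libraries are numbered as in the labels. B cell and follicle markers are highest in cecum arsenic 11 and 13, position markers range from 4126 to 16180 CPM over the colon controls, and pancreatic acinar markers are highest in colon controls 2 and 3.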

How the data were processed

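Poly-A RNA was sequenced in pairs of 150-base reads. What the authors deposited is a table of raw read counts, one line for each of 52550 Ensembl genes. Tools listed in the submitters' processing notes are DESeq2 1.6.3, HTSeq 0.6.0, HISAT2 2.1.0 and SAMtools. Build, annotation and strandedness are not given in the sources used here, and antisense, overlapping and near-identical genes have uncertain counts. Symbols were joined by identifier for 52403 genes, and the 147 others held 0.00312 to 0.0059% of a library.

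The 18 cecum and colon libraries (16069985 to 18083282 counts) were fitted together with edgeR 4.0.16 in R 4.3.3: filterByExpr (min.count 10, min.total.count 15), TMM scaling, a mean for each of 4 groups, robust quasi-likelihood F-tests and Benjamini-Hochberg adjustment over 17004 genes at 0.05. The test is the colon change minus the cecum change, and the 2 diet changes come from the same fit. SE and 95% intervals come from the fit's working weights. Within groups, log CPM correlated at 0.979 to 0.997 and no 2 libraries were identical. The procedure was tested on simulated data.

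Members, gene lists and tests were chosen with earlier results of these data known. Genes are named by a rule: those called, those called in both regions with opposite signs, the 3 members of each list described with the smallest regional p, and a few fixed genes of arsenic handling, chaperones, epithelium and clock. Predicted genes and receptor segments are left out, and a few genes that meet the rule are not reported here. Others are marked where they appear. Alternatives were DESeq2 1.42.0, scaling by RLE or by upper quartile, limma 3.58.1 voom with library or region weights, no filter, 1 CPM in 4 libraries, all 27 libraries in 1 fit, a replicate block, and each library left out. A position covariate, centred within each group, and 3 sets of libraries left out were added after seeing the data. Figures used matplotlib 3.10.9.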

Additional observations from a re-analysis of the deposited data

Results flagged for a closer look

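Elmsan1 was the gene whose diet change differed between the regions by the test of the difference itself (0.78 log2 units), as described with its library values above. The other values listed here are single libraries whose distance to their nearest neighbour in a group of 4 or 5 exceeded Dixon's 95% limit, which chance alone passes in about 1 of 20 groups. The screen covered the 4 groups for each of 85 named genes and for some marker lists. Many such flags are therefore expected by chance alone. Cecum arsenic 11 stood above the rest of its group in Hsph1 (50.9 CPM) and pancreatic acinar markers (80.3 CPM). Cecum arsenic 13 stood below the rest of its group in Slc9a3r1 (776 CPM). Cecum control 1 stood above the rest of its group in Jup (502 CPM) and Cd22 (4.24 CPM). Cecum control 1 stood below the rest of its group in Ephx1 (10.4 CPM). Cecum control 2 stood below the rest of its group in Chordc1 (66.8 CPM). Cecum control 4 stood above the rest of its group in Fabp6 (7.90 CPM). Colon arsenic 11 stood above the rest of its group in Plin3 (74.5 CPM). Colon arsenic 11 stood below the rest of its group in Rpl26 (336 CPM). Colon arsenic 12 stood above the rest of its group in Hmox1 (7.14 CPM). Colon arsenic 12 stood below the rest of its group in Hspa1b (36.5 CPM). Colon control 1 stood above the rest of its group in Mt1 (58.3 CPM) and As3mt (28.5 CPM). Colon control 1 stood below the rest of its group in Slc9a3 (596 CPM) and Hmgcs1 (110.1 CPM). Colon control 3 stood above the rest of its group in Ppp1r15a (22.9 CPM). Colon control 4 stood above the rest of its group in Sdf2l1 (38.2 CPM) and Hspa5 (734 CPM). Colon control 4 stood below the rest of its group in Evi5l (12.3 CPM).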

How the results depend on the processing

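The regional test called 1 gene. It called 0 with RLE scaling, upper-quartile scaling, 1 weight per region in limma voom, all 27 libraries in 1 fit and the position covariate, 2 with no filter, 57 (55 higher, 2 lower) with library weights in voom and 150 (116 higher, 34 lower) with DESeq2. Without the 3 colon libraries of low position level, or the 2 cecum libraries of high B cell level, it called 0, and without the 2 colon libraries of high position level 41 (39 higher, 2 lower). These sets and the position covariate were chosen after seeing the data. Opposite signs of the 2 changes were held by 1 called gene, by 98 with DESeq2, 36 with library weights, 26 without the 2 colon libraries of high position level and 0 in each setting with 0 calls. The colon count of 793 was 1243 with DESeq2, 320 with 1 weight per region, 480 with no filter and 493 with all libraries. The cecum count of 2706 was 4422 with library weights and 1184 without the 2 cecum libraries of high B cell level. Leaving out 1 library at a time gave 0 to 59 regional calls (0 to 49 higher, 0 to 10 lower, 0 to 40 with opposite signs), 353 to 1309 colon calls and 1817 to 3589 cecum calls. The cause of these moves was not tested, apart from fewer libraries or genes.

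Equal numbers in the 2 regions shared only a number: 6 of 8 pairs had a correlation over 0.1 (0.031 to 0.259), and 6 of 8 correlated best with their own number, a hint from the data and not the design. With the replicate block edgeR called 6 genes (4 higher, 2 lower), among them Gch1 but not Elmsan1 (adjusted p = 0.0848), and with the replicate block as a random effect limma voom called 25, all higher, 16 of them with opposite signs. Of 2720 values over 85 named genes, 2595 kept their side of the threshold, and the uncalled among them lay within 1 SE of the main value. Another 15 uncalled values moved further, 90 passed newly and 20 no longer passed (all Elmsan1). Among values called in either fit, 0 reversed. The sign of uncalled values was not counted, and some changed: Hsph1 was positive in 18 of 32 alternatives and Per2 in 8. Depth was similar in all libraries.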

Other observations

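Other gene groups had 0 calls in the regional test by edgeR. Their counts stand beside 7.32% of all genes that rose and 8.6% that fell in the cecum, and 4.66% called in the colon. For 67.2% of all genes the 95% interval of the regional difference lay within 1 log2 unit of 0. Smooth muscle markers were higher for 4 of 18 genes in the cecum and called for 0 in the colon, with list medians of 0.31 and 0.21, a summed level of 4616 to 6254 CPM in cecum controls and 5319 to 8906 CPM in cecum arsenic libraries, and 0 unadjusted regional p-values under 0.05. Mitochondrially encoded transcripts rose for 4 of 12 genes in the cecum and for 0 in the colon, and the regional difference was negative for all 12 (median -0.17). Among 39 nuclear subunits of oxidative phosphorylation, 0 were called in either region and the 95% interval of the regional difference lay within 1 log2 unit of 0 for all 39. The 31 collagen and matrix genes had 0 calls in either region and a negative regional difference throughout (median -0.19). Cell cycle and DNA replication genes had 0 calls of 30 in both regions, with 30 of 30 intervals within 1 log2 unit of 0. Of 25 genes of fatty acid oxidation, 1 fell in the cecum and 0 were called in the colon. Beside these 0 calls, 1 mitochondrial, 1 matrix and 1 cell cycle gene had an unadjusted regional p under 0.05, as did 9.66% of all genes.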
